A study of Rattus norvegicus with 24 samples.

Results

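Splicing factors and heterogeneous nuclear ribonucleoproteins (hnRNP proteins) were examined in the rat supraoptic nucleus after water deprivation. Members were all probe sets whose single gene symbol in the platform annotation starts with Srsf, Hnrnp, Sf3a, Sf3b, Snrp or Prpf, a rule on symbols that uses no measured value, although the families were picked with earlier results of these data known. This gave 94 probe sets of 58 genes, out of 31099 probe sets on the array and out of 14218 genes named by the 20832 probe sets with a single symbol. There were 20 Srsf probe sets of 11 genes, 31 Hnrnp probe sets of 17 genes, 4 Sf3a probe sets of 3 genes, 9 Sf3b probe sets of 6 genes, 11 Snrp probe sets of 10 genes and 19 Prpf probe sets of 11 genes. The word transcript is used below for what a probe set reads, and 19 of the 58 genes had more than 1 probe set. None of the 94 carries the suffixes _s_at or _x_at, which mark probe sets that can read several transcripts, also of different genes. The suffix _a_at, carried by 3 of the 94, marks probe sets that can read several transcripts of the same gene. The symbol Srsf7-ps4 names a pseudogene of Srsf7.

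Each Affymetrix array held RNA of the supraoptic nucleus pooled from 5 Sprague Dawley rats. The female set had 4 arrays of rats deprived of water for 72 hours with food freely available, and 4 arrays of euhydrated control rats. The male set had 5 arrays of rats dehydrated for 3 days, and 5 arrays of control rats, all aged 10 to 12 weeks. Lactating rats, a further group of the series, were not analysed here. Trizol extraction and Affymetrix labelling reagents were used for the female RNA, while QIAzol, RNeasy columns and an Ambion amplification kit were used for the male RNA, so sex, extraction, labelling and software cannot be told apart between the sets. Each set was therefore compared with its own controls. A pool is 1 sample, and p-values measure the spread between pools, which the design text treats as both biological and technical.

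The neurons of the supraoptic nucleus make vasopressin and oxytocin, and in dehydration they are known to raise the synthesis and release of both hormones. Introns are removed by the spliceosome, which is built from U1, U2, U4, U5 and U6 particles, each a small nuclear RNA with its proteins. SR proteins (Srsf genes) mostly bind exons and favour the use of nearby splice sites, while hnRNP proteins coat the nascent RNA, often oppose SR proteins at splice sites, and also act in RNA export, transport and stability. Splicing proteins are expressed in all cells of the tissue, so in these pools fewer cells of a type and less RNA per cell cannot be told apart.

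Avp (vasopressin) and Oxt (oxytocin), the defining markers of the dissected nucleus, gave deposited signals of 3834 to 7666 and 3330 to 6698 on the dehydrated female arrays, against 3644 to 4254 and 3001 to 3576 on the control female arrays. On the male arrays Avp lay between 4397 and 5928 in dehydrated rats, against 4337 to 5616 in controls, and Oxt between 3872 and 5337, against 3950 to 5572. Neither passed the threshold in either set (limma, lowest adjusted p = 0.283). A further array labelled dehydrated female was left out by the rule that defined the comparison; its values are given in the closing section. Female control replicate 2 stood apart in the ratio of 3′ to 5′ control probe sets, a sign of RNA or cDNA length, with 13.3 for beta-actin and 4.12 for GAPDH. The other used female arrays had 2.44 to 5.30 and 1.02 to 1.68. Results that rest on the female arrays are given with and without that replicate where it changes a call.

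Changes of these transcripts were small in both sets. A low-value filter, the 30th percentile of mean log2 value, was passed by 85 of the 94 members in females and by 83 in males. The probe sets of Srsf3, 2 of Srsf10, 2 of Prpf38b, 2 of Prpf3 and 1 of Sf3b1 did not pass it in either set, 1 of Prpf4b did not in females, and 1 each of Hnrnpdl, Srsf7 and Srsf10 did not in males. In the male set 0 members rose and 10 fell at an adjusted p under 0.05, against a background of 8.32% of all 21729 probe sets that rose and 9.38% that fell. In the female set 0 members rose and 1 fell, against 1.77% and 1.19% of all probe sets. At an unadjusted p under 0.05, 3 members were higher in dehydrated males (3.61%) and 16 lower (19.3%), against 13.1% and 18.2% of all probe sets. In females 3 were higher (3.53%) and 10 lower (11.8%), against 8.30% and 10.6% of all. The shares of lower members were thus near the background and those of higher members below it. The median log2 fold change of the members was -0.027 in females, where that of all probe sets tested was -0.028, and -0.049 in males, where that of all was -0.042. When each array was centred on its median instead of its trimmed mean, the male member median turned to 0.028 and that of all probe sets to 0.036.

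No member went beyond 2-fold in either set, while 0.847% of all probe sets did in females and 0.787% in males. The 95% confidence interval of the fold change lay within 0.5 of 0 on the log2 scale, that is within 1.41-fold, for 46 of 85 members in females (54.1%) and 73 of 83 in males (88.0%). The same held for 34.7% of all probe sets in females and 61.9% in males. The median SD between arrays of a group was 0.169 in females and 0.106 in males for the members on the log2 scale, and 0.236 and 0.185 for all probe sets tested. The plot of fold changes by family shows most members close to 0 and the falls of the male set mainly among the hnRNP genes.

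**Figure D1:**
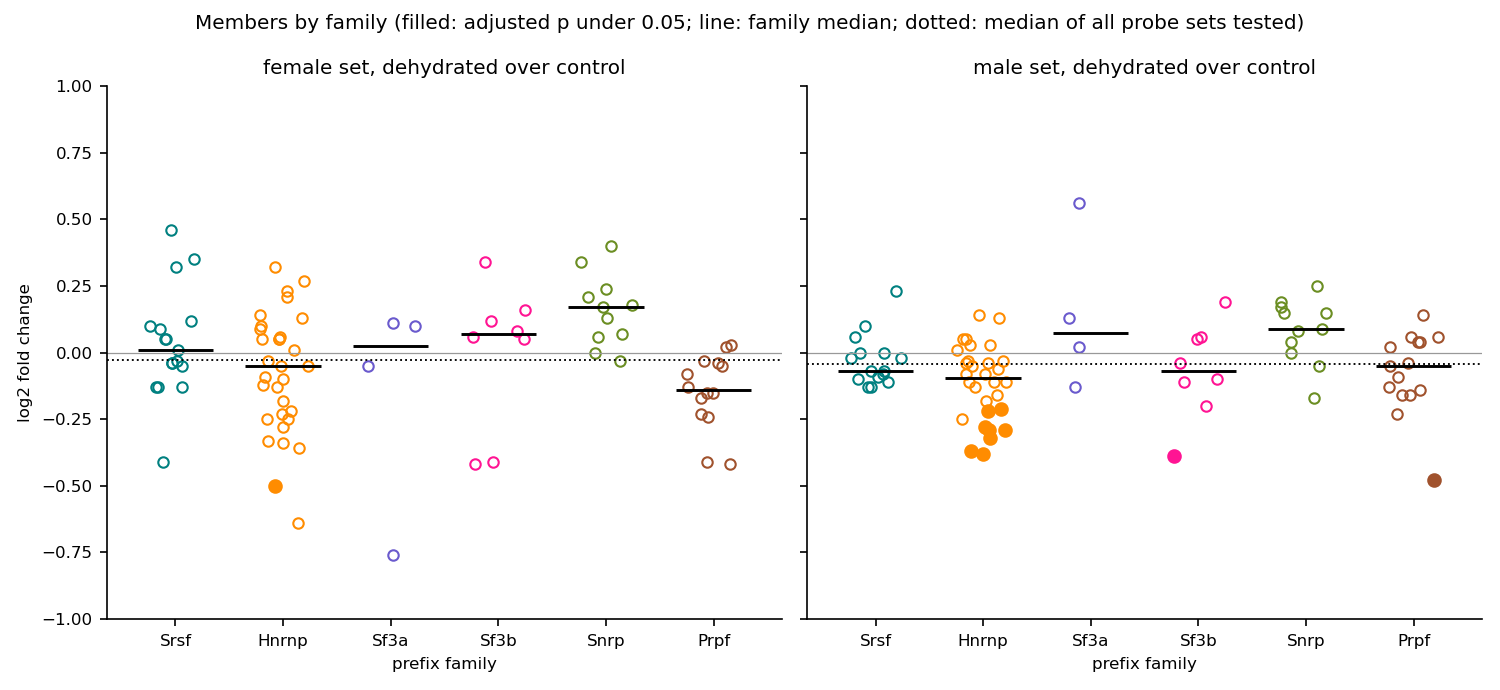
Log2 fold change (dehydrated over control) of every member tested, by family, in the female set (left) and the male set (right). Filled points passed the threshold, horizontal lines are family medians and the dotted line is the median of all probe sets tested; 8 of the 10 filled points of the male set are Hnrnp, and 1 Hnrnp probe set is filled in the female set.

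The hnRNP genes held 8 of the 10 falls in males, from 7 genes, out of 30 probe sets tested. This was 26.7%, against 9.38% of all probe sets and 2 of 53 members outside the hnRNP genes (3.77%). The median log2 fold change of the hnRNP probe sets was -0.097 in males, -0.134 after quantile normalization and -0.020 after median centring. In females it was -0.054. The groups did not overlap, dehydrated below control, for 9 of the 30 in males. Among all members this was 9 of 83 in males and 9 of 85 in females, against 5.84% and 7.03% of all probe sets. The opposite pattern, dehydrated above control with no overlap, was seen for 0 members in males and 2 in females, against 6.82% and 5.31% of all probe sets. The falls in the male set were small, between 13.8% and 28.2%, on the scale log2(signal scaled to 500 + 32) on which every fold change here was computed.

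Hnrnph3 encodes a member of the hnRNP H and F family, which binds G-rich RNA, and was the member that passed in both sets. Probe set 1395455_at gave 214, 239, 236, 246 and 230 in dehydrated males, against 292, 287, 290, 340 and 305 in control males. It gave 265, 204, 254 and 272 in dehydrated females, against 316, 374, 379 and 349 in control females. In both sets every dehydrated array lay below every control array. The log2 fold change was -0.37 ± 0.07 in males (SE, n = 5 against 5; limma adjusted p = 0.00186) and -0.50 ± 0.12 in females (n = 4 against 4; limma adjusted p = 0.0439). The female call was lost on leaving out any of the 8 arrays, where the log2 fold change stayed between -0.56 and -0.41 and the limma adjusted p reached 0.132. Without female control replicate 2 the value was -0.48 (limma adjusted p = 0.0555).

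Hnrnpa3 is a nuclear hnRNP of the A and B group, which binds silencer elements in exons and introns. Probe set 1374405_at gave 408, 409, 400, 409 and 411 in dehydrated males, against 576, 490, 476, 507 and 507 in control males. The dehydrated arrays were close to each other and all lay below the controls, with a log2 fold change of -0.32 ± 0.06 (limma adjusted p = 0.00185). In females it gave 487, 383, 465 and 414 in dehydrated rats, against 481, 549, 482 and 532 in controls. There the groups overlapped by 1 dehydrated array, and the log2 fold change was -0.23 ± 0.11 (limma adjusted p = 0.286).

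Hnrnpa2b1 encodes hnRNP A2/B1, which also carries messenger RNAs into the processes of neurons and oligodendrocytes. Probe set 1378543_at gave 129, 129, 126, 120 and 108 in dehydrated males, against 170, 158, 157, 174 and 143 in control males. The female values were 134, 126, 162 and 128 in dehydrated rats, against 178, 173, 184 and 172 in controls. No dehydrated array reached a control array in either set, and the log2 fold change was -0.38 ± 0.08 in males (limma adjusted p = 0.00529) and -0.36 ± 0.11 in females (limma adjusted p = 0.111). Probe set 1373540_at of the same gene gave means of 195 ± 15.1 in dehydrated males and 239 ± 16.2 in control males (SD, n = 5 each), with a log2 fold change of -0.29 ± 0.07 (limma adjusted p = 0.0141). Its female groups did not overlap either, with a log2 fold change of -0.25 ± 0.10 (limma adjusted p = 0.222).

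RefSeq windows at the annotated starts of these 3 genes are shown because of 1 probe set of each, 1395455_at, 1374405_at and 1378543_at. These kept their call in males under all 9 other settings and on leaving out each of the 10 arrays. The second call of Hnrnpa2b1, 1373540_at, was lost after median centring (limma adjusted p = 0.0711). Each window, on GRCr8, covers the annotated start and is written 5′ to 3′ on the strand of the gene. The Hnrnph3 window ends in letters that can be read as a start codon followed by further codons. It may therefore lie inside the gene and not be a promoter. Which start is used in this tissue was not tested. The capitals mark matches, on either strand, to the GC box GGGCGG or the CCAAT box CCAAT. The windows are chr20:25619290-25619589 (plus strand) for Hnrnph3, chr3:80985684-80985983 (plus strand) for Hnrnpa3 and chr4:81875837-81876136 (minus strand) for Hnrnpa2b1.
Hnrnph3: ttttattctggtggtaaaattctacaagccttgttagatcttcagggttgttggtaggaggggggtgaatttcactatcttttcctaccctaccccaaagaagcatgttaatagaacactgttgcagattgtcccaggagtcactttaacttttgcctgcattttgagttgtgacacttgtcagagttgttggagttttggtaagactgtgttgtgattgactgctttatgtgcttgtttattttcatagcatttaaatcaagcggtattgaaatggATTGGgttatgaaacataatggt
Hnrnpa3: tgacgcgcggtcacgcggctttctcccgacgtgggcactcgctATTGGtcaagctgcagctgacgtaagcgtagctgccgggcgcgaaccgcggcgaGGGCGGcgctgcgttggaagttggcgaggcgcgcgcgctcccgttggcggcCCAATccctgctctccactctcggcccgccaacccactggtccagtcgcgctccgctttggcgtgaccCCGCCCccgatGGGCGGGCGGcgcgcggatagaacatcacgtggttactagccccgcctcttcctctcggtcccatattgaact
Hnrnpa2b1: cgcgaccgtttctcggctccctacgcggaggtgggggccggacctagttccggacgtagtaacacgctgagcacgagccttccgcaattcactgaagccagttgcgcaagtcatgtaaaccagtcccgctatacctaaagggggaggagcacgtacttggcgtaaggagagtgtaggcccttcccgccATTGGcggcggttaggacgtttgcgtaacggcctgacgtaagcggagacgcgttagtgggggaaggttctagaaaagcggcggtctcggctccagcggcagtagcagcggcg

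The Hnrnpa3 window held 4 GC box matches, of which a pair overlap, and 2 CCAAT matches, while the Hnrnpa2b1 and Hnrnph3 windows held 1 CCAAT match each and no GC box match. RefSeq promoters were matched by symbol for 55 of the 58 member genes, with 59 windows. A CCAAT match on either strand lay in 33 of the 59 (55.9%), where 37.5% of all 33469 windows had it. It lay in 7 of the 8 windows of genes that fell in males, counting the Hnrnph3 match, which may lie in coding sequence. Sf3b2, also a gene with a fall in males, had no window matched by symbol. A GC box match lay in 34 member windows (57.6%), against 33.1% of all. The letters CCGGAAG, the core read by ETS factors, lay in 19 member windows (32.2%), against 8.75% of all, and in 0 of the 8 windows of genes that fell. The TATA box letters TATAAA lay in 7 member windows (11.9%), against 14.2% of all, and the cyclic AMP response element TGACGTCA in 0, against 1.83% of all. These are matches of letters only, and the windows of all genes include non-coding genes and pseudogenes.

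The other hnRNP falls in males were of similar size. Hnrnpa1, which binds exonic silencers and antagonises SR proteins, gave 363, 360, 316, 328 and 302 for probe set 1372693_at in dehydrated males, against 427, 414, 391, 427 and 382 in control males. The groups did not overlap (log2 fold change -0.29 ± 0.07, limma adjusted p = 0.00792). In females the probe set gave 203 to 316 in dehydrated rats, against 254 to 448 in controls (log2 fold change -0.33 ± 0.17, limma adjusted p = 0.338). Hnrnpr, an RNA-binding protein of nucleus and axon, had 429 ± 16.8 in dehydrated males and 499 ± 21.5 in control males (SD, n = 5 each), which on the log2 scale is -0.21 ± 0.05 (limma adjusted p = 0.0137). Hnrnpu, also known as scaffold attachment factor A, bound to both chromatin and RNA, had 127 ± 8.38 for probe set 1372823_at in dehydrated males and 155 ± 7.79 in control males, a log2 fold change of -0.28 ± 0.07 (limma adjusted p = 0.0179). Hnrnpm, another pre-mRNA binding hnRNP, had 229 ± 15.3 in dehydrated males and 267 ± 6.13 in control males, a log2 fold change of -0.22 ± 0.06 (limma adjusted p = 0.0263), which passed in 6 of the 10 fits that leave out a male array. It was lost without dehydrated replicates 1 or 5 or control replicates 2 or 3 (limma adjusted p = 0.0510 to 0.0704). For the probe set given for each of these 4 genes the male groups did not overlap, with every dehydrated array below every control array. The male groups overlapped for the other probe sets of Hnrnpa1 and Hnrnpu. After median centring 3 of the 8 hnRNP falls passed, those of Hnrnph3, Hnrnpa3 and Hnrnpa2b1 1378543_at, and the others did not. In a common fit of all 4 groups the calls of Hnrnpa1, Hnrnpr, Hnrnpu and Hnrnpm were lost as well, and that of Hnrnpm also without the mean-variance trend.

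**Figure D2:**
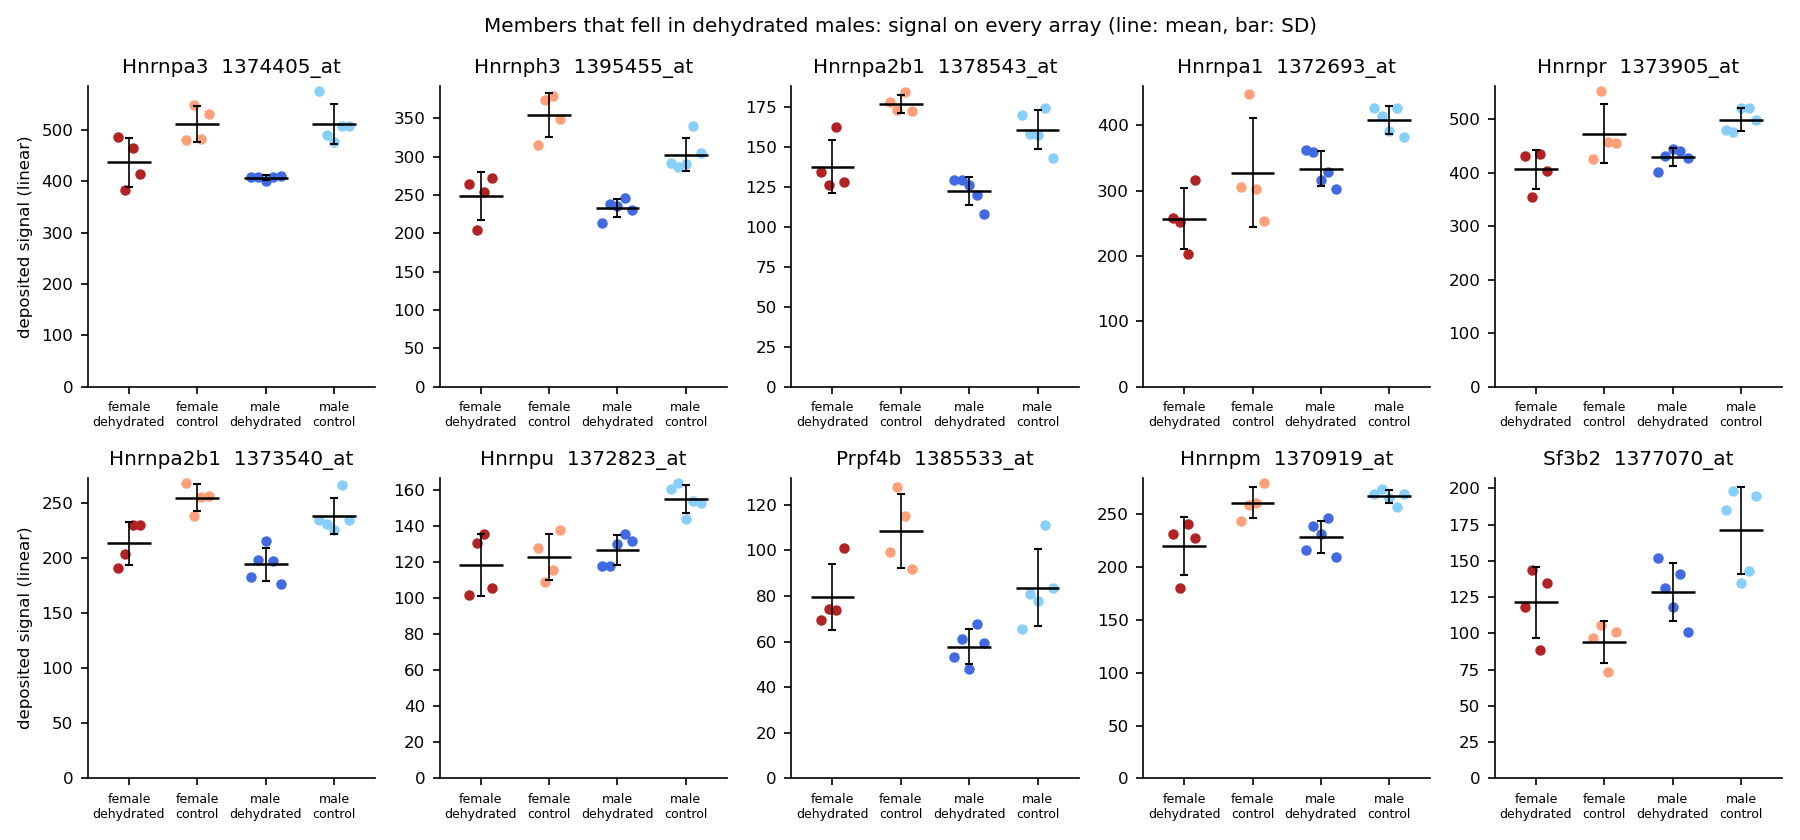
Deposited signal on every array (linear axis starting at 0) of the 10 member probe sets that fell in dehydrated males, with points for arrays, lines for group means and bars for SD, in dehydrated and control females and in dehydrated and control males. The male groups do not overlap in 8 of the 10 panels, and Sf3b2 is the panel where the female means run the other way.

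Other hnRNP transcripts differed little between the male groups, and over the family the log2 fold changes ran between -0.38 and 0.14 in males and between -0.64 and 0.32 in females. Hnrnpc, whose protein binds uridine tracts in pre-mRNA, had 760 ± 27.0 in dehydrated males and 747 ± 32.2 in control males, with a 95% interval of the log2 fold change of -0.08 to 0.13. Hnrnpl, which binds CA repeats, had 818 ± 36.9 in dehydrated males and 800 ± 24.5 in control males, with an interval of -0.07 to 0.14. Hnrnpd, also called AUF1 and known for binding AU-rich elements, gave 291 to 319 in dehydrated males and 269 to 309 in control males (log2 fold change 0.05 ± 0.06). In females, 2 hnRNP probe sets had non-overlapping groups with the dehydrated arrays higher. These were Hnrnpu 1370170_at (log2 fold change 0.14 ± 0.09) and Hnrnpdl 1372810_at. Hnrnpdl 1372810_at gave 517, 481, 518 and 481 in dehydrated females, against 413, 394, 381 and 401 in control females (log2 fold change 0.32 ± 0.09, limma adjusted p = 0.0796). The other Hnrnpdl probe sets, 1371333_at and 1378967_at, had -0.03 ± 0.12 and 0.23 ± 0.31 in females. In males 1371333_at was lower without overlap (-0.13 ± 0.06, limma adjusted p = 0.117). Hnrnpu 1370171_at and 1372823_at had -0.28 ± 0.15 and -0.05 ± 0.13 in females. Hnrnpul1 gave 34.3, 27.8, 47.1 and 49.5 in dehydrated females, against 57.2, 79.1, 57.2 and 64.1 in control females, with no overlap (log2 fold change -0.64 ± 0.19, limma adjusted p = 0.0946). Hnrnpu 1370170_at, Hnrnpdl 1372810_at and Hnrnpul1 did not pass the threshold.

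Probe sets of the same gene gave different values. In males, 17 member genes had at least 2 probe sets tested. A fall was called for 7 of them, and in all 7 at least 1 other probe set of the gene did not pass. For Hnrnpa2b1, probe set 1398883_at had 757 ± 34.3 in dehydrated males and 786 ± 31.3 in control males, with an interval of -0.16 to 0.05 on the log2 scale that does not reach the values of the probe sets 1378543_at (-0.38) and 1373540_at (-0.29). For Hnrnpa3, the log2 fold changes of the 5 probe sets ran between -0.32 and -0.03, and for Hnrnpa1 those of 3 between -0.29 and -0.04. Hnrnph3 1375019_at had a log2 fold change of -0.04 ± 0.09 in males and -0.34 ± 0.12 in females (limma adjusted p = 0.817 and 0.149). For Hnrnpu, probe sets 1370170_at and 1370171_at had -0.03 ± 0.05 and -0.16 ± 0.07 in males. Over the 17 genes the median distance between the highest and lowest fold change of a gene was 0.28 in males and 0.36 in females, and 8 genes in males and 11 in females had probe sets of both signs. Which transcript forms the probe sets read was not analysed here.

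**Figure D3:**
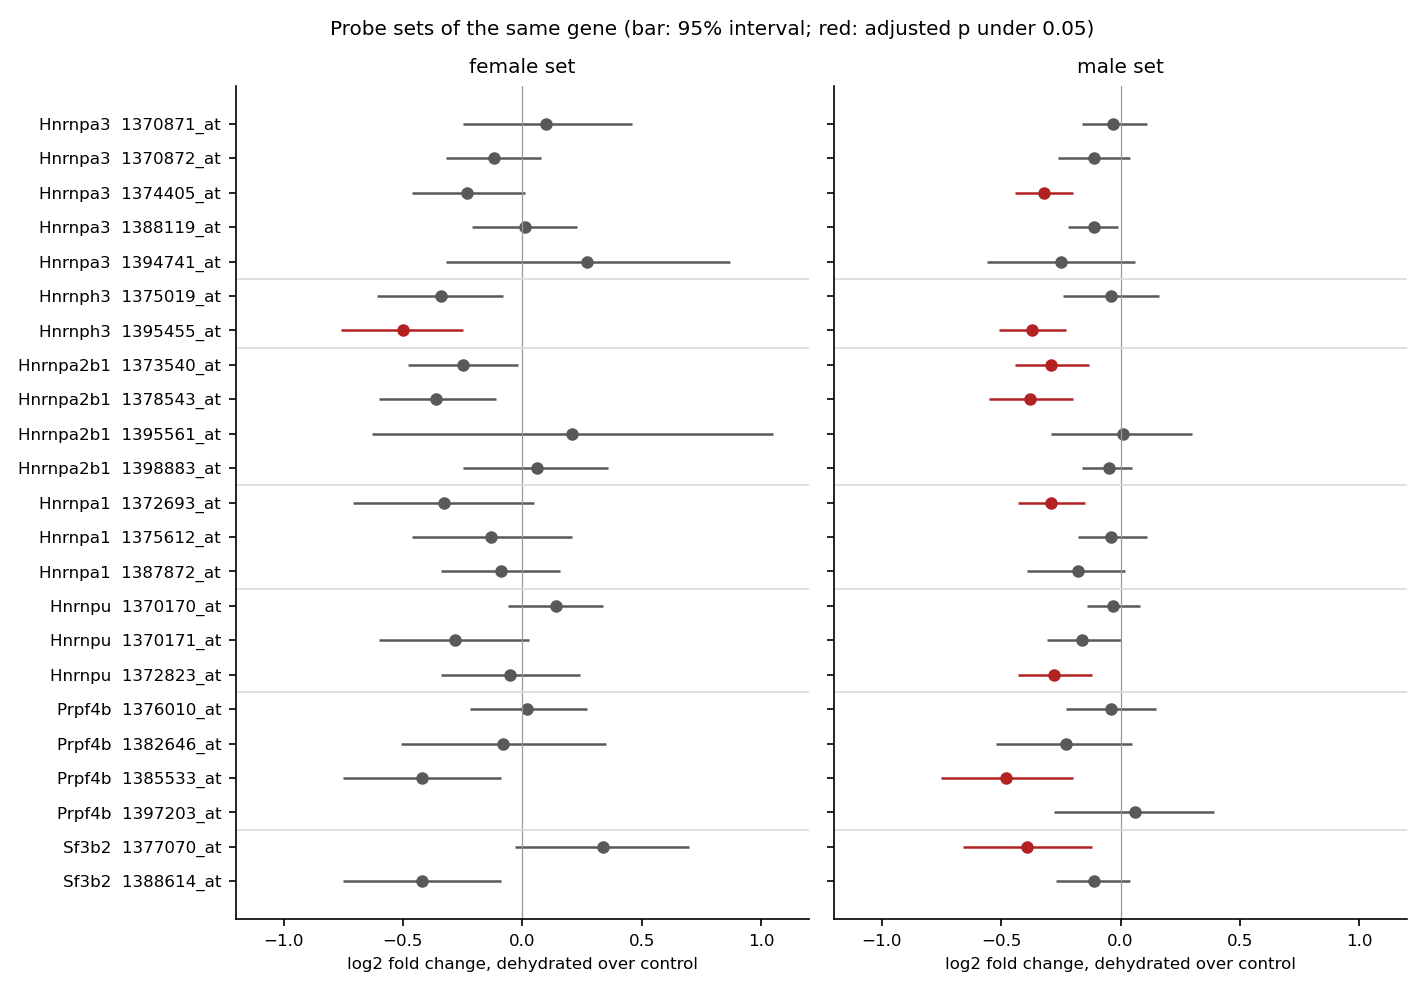
Log2 fold change (dehydrated over control, horizontal axis) with its 95% interval for every tested probe set of the 7 genes with a call in males and more than 1 probe set, in females (left) and males (right), with red for an adjusted p under 0.05. For each gene at least 1 probe set in the male panel is not red, and the intervals of Hnrnpa2b1 1398883_at and Hnrnpa2b1 1378543_at in males do not meet.

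SR protein genes did not pass the threshold in either set. Of the 20 Srsf probe sets, 17 were tested in females and 15 in males. Their medians were 0.007 and -0.068 on the log2 scale, with ranges of -0.41 to 0.46 and -0.13 to 0.23. The lowest female value, -0.41 ± 0.14, belonged to the pseudogene Srsf7-ps4, whose female groups did not overlap (limma adjusted p = 0.143). The smallest male p belonged to Srsf5, first described as a growth-induced gene of regenerating rat liver. Its probe set 1368992_a_at gave 1034, 960, 954, 935 and 947 in dehydrated males, against 1091, 1031, 1008, 1141 and 1038 in control males. The highest dehydrated array overlapped the controls, and the log2 fold change was -0.13 ± 0.05 (limma adjusted p = 0.0760). In dehydrated females it gave 1006 to 1114, against 873 to 1139 in control females (log2 fold change 0.10 ± 0.11). After quantile normalization it passed in males, at -0.23 ± 0.05 (limma adjusted p = 0.00621).

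Srsf2, which binds exonic enhancers, had log2 fold changes of -0.02 ± 0.07 (probe set 1371838_at) and 0.06 ± 0.08 (1371839_at) in males, and of -0.04 ± 0.11 and 0.46 ± 0.17 in females. The female value of 1371839_at rested on 276, 278, 259 and 214 in dehydrated rats, against 196, 124, 201 and 235 in controls, where the lowest array is replicate 2 (limma adjusted p = 0.179). Srsf1, the prototype of the family, had -0.09 ± 0.06 and -0.11 ± 0.10 in males for its 2 probe sets. Srsf4 had -0.07 ± 0.06 and Srsf9 -0.07 ± 0.07 in males. Srsf11 1382056_at gave 189, 165, 149 and 191 in dehydrated females, against 131, 149, 136 and 132 in control females (log2 fold change 0.32 ± 0.12, limma adjusted p = 0.158), and its other probe set, 1368212_at, had -0.04 ± 0.12. Srsf3 has a single probe set here and did not pass the filter on low values in either set.

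The SF3A and SF3B complexes help the U2 particle hold the branch point. Their genes gave 1 fall in males among 12 tested probe sets and none in females. This was 1 of 8 Sf3b probe sets tested (12.5%), against 9.38% of all probe sets. Sf3b2 1377070_at had 152, 131, 118, 141 and 101 in dehydrated males, against 185, 198, 135, 143 and 195 in control males. The groups overlapped, and the log2 fold change was -0.39 ± 0.13 (limma adjusted p = 0.0434). The call held in 3 of the 10 fits that leave out an array, those without dehydrated replicate 1 or control replicates 3 or 4, and the limma adjusted p reached 0.108. It also held in only 3 of the 9 other settings, and was lost after quantile normalization or median centring, without the filter or the trend, with array weights and in a common fit of all 4 groups. In females the same probe set had 118, 144, 88.2 and 135 in dehydrated rats, against 96.6, 106, 73.3 and 101 in controls (log2 fold change 0.34 ± 0.17, limma adjusted p = 0.299). The second probe set of the gene, 1388614_at, had -0.11 ± 0.07 in males and -0.42 ± 0.15 in females (limma adjusted p = 0.307 and 0.153).

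Sf3b3 gave 208, 213, 227 and 193 in dehydrated females, against 288, 233, 309 and 303 in control females, with no overlap (log2 fold change -0.41 ± 0.12, limma adjusted p = 0.0792). Without female control replicate 2, Sf3b3 passed at -0.50 ± 0.11 and Sf3b2 1388614_at at -0.56 ± 0.12 (limma adjusted p = 0.0236 and 0.0287). In males Sf3b3 had 252 ± 18.2 in dehydrated rats and 270 ± 17.6 in controls (limma adjusted p = 0.357). Sf3b1, which encodes the largest SF3B protein, had -0.04 ± 0.05 and -0.20 ± 0.08 in males for 1390234_at and 1389840_at. Sf3a1 had the largest positive log2 fold change of all members in males, 0.56 ± 0.27 for probe set 1389328_at. It rested on low signals of 37.3 ± 9.19 in dehydrated males and 25.2 ± 12.9 in control males (SD, n = 5 each), whose ranges overlapped, and did not pass (limma adjusted p = 0.170).

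Snrp genes, which encode the Sm ring proteins shared by the particles and proteins specific to U1 and U2, had a positive median fold change in both sets, 0.174 in females and 0.087 in males on the log2 scale. The sign held after quantile normalization (0.225 and 0.071) and median centring (0.216 and 0.165). Of the 11 probe sets, 9 lay above 0 in females and 8 in males. Among all 21729 probe sets tested, 10042 lay above 0 in females and 9345 in males. No Snrp probe set passed the threshold in either set (smallest limma adjusted p = 0.384 in females and 0.122 in males). The smallest male p belonged to Snrpd2, an Sm ring protein, with 796, 852, 843, 750 and 842 in dehydrated males, against 781, 804, 708, 642 and 747 in control males. The groups overlapped (log2 fold change 0.15 ± 0.06, limma adjusted p = 0.122), and it passed after median centring at 0.23 ± 0.07 (limma adjusted p = 0.0262), together with Snrpd1 1383107_at and Sf3b4. Among the others, Snrpb gave 281 to 306 in dehydrated males and 253 to 317 in control males (log2 fold change 0.04 ± 0.07). Snrpn, a neuron-enriched Sm protein from an imprinted locus, had 0.25 ± 0.22 in males and 0.34 ± 0.20 in females.

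Prpf genes encode factors named after yeast pre-mRNA processing mutants, some of them in the U4, U5 and U6 complex. The only call was a fall of Prpf4b, a kinase that phosphorylates splicing proteins, in males. This was 1 of 15 Prpf probe sets tested in males (6.67%), against 9.38% of all probe sets. Probe set 1385533_at gave 53.1, 61.0, 47.9, 67.5 and 59.5 in dehydrated males, against 65.4, 80.7, 77.9, 111 and 83.6 in control males. A single control array, replicate 1, lay within the dehydrated range, and the log2 fold change was -0.48 ± 0.13 (limma adjusted p = 0.0188). The call was lost after quantile normalization (limma adjusted p = 0.0523). In females it was -0.42 ± 0.15 (limma adjusted p = 0.156), with 69.5, 74.2, 73.8 and 101 in dehydrated rats, against 99.1, 128, 115 and 91.8 in controls. The other probe sets of Prpf4b tested in males had log2 fold changes of -0.04 ± 0.09, -0.23 ± 0.13 and 0.06 ± 0.16.

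Prpf8, the central scaffold of the U5 particle, had 662 ± 34.6 in dehydrated males and 642 ± 27.7 in control males, an interval of -0.07 to 0.16 on the log2 scale. In females it had 599 ± 48.9 in dehydrated rats and 611 ± 44.1 in controls, an interval of -0.26 to 0.20. Prpf6, which bridges U5 with U4 and U6, had 0.04 ± 0.07 in males, and Prpf19, the ubiquitin ligase that gives the Prp19 complex its name, had 0.06 ± 0.06. The median of the 14 Prpf probe sets tested in females was -0.139, with 12 of 14 below 0 and 0 called. Among all 21729 probe sets tested in females, 11687 lay below 0.

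The male and female sets have separate controls, so their fold changes can be set side by side. Of 82 members tested in both sets, 54 had the same sign (65.9%), against 68.1% of all 20492 probe sets tested in both. The Pearson correlation of the fold changes was 0.33 over the 82 members and 0.54 over all probe sets; probe sets are not independent, and several share a gene. Of the 10 members that fell in males, 9 lay below 0 in females, 4 with an unadjusted p under 0.05. The female groups did not overlap for 4 of the 10. The matching counts among all probe sets that fell in males were not taken, so these counts cannot be called particular to the members.

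The test of the difference between the dehydration effects (female minus male) called 0 of 84 members, against 0.0322% of all probe sets, which is 7 of 21729. At an unadjusted p under 0.05 there were 10 members (11.9%), near the 10.0% of all probe sets. The smallest p belonged to Prpf40b, a relative of a yeast U1 particle protein, which gave 166, 137, 172 and 138 in dehydrated females, against 203, 184, 241 and 192 in control females, and 149, 148, 150, 158 and 150 in dehydrated males, against 133, 137, 128, 134 and 154 in control males. The difference was -0.54 ± 0.13 on the log2 scale (limma adjusted p = 0.124), and it passed with array weights at -0.57 ± 0.12 (limma adjusted p = 0.0419). For Sf3b2 1377070_at the difference was 0.73 ± 0.21 (limma adjusted p = 0.220).

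**Figure D4:**
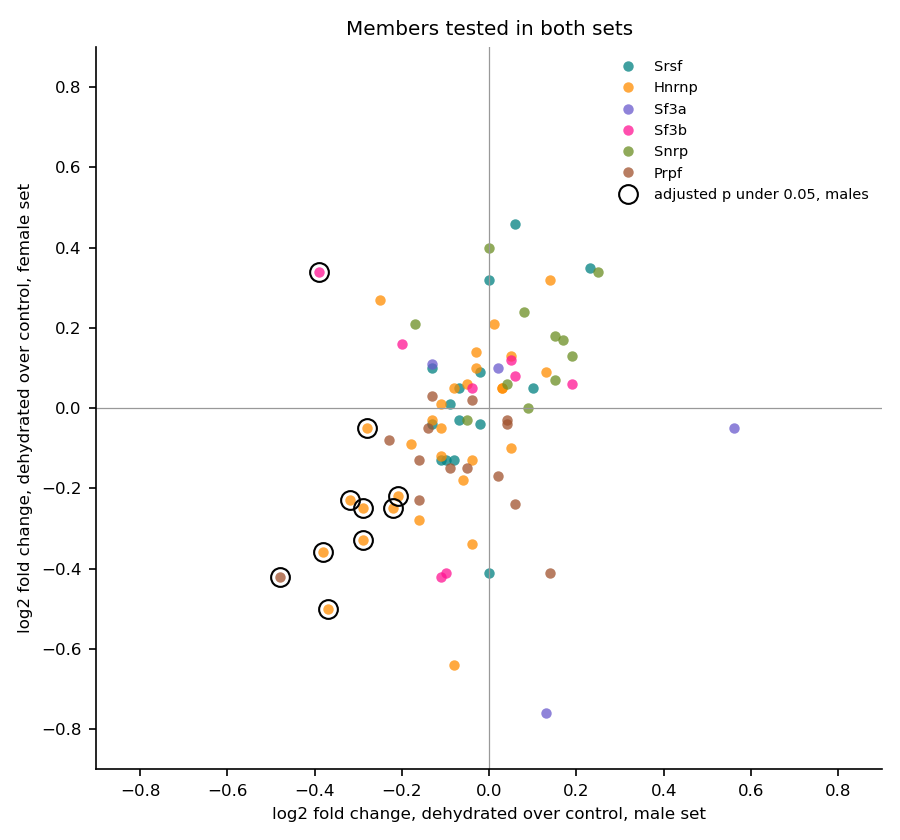
Log2 fold change (dehydrated over control) of the 82 members tested in both sets, in females (vertical axis) against males (horizontal axis), coloured by family, with rings around the members that fell in males. Of the 10 ringed points, 9 lie below 0 on the female axis, and Sf3b2 is the exception.

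A further 5 lists of splicing genes whose symbols fall outside the 6 prefixes were counted in the same fits, 306 probe sets in all. In males 10 of 267 tested rose (3.75%) and 28 fell (10.5%), against 8.32% and 9.38% of all probe sets. In females 0 of 269 rose and 2 fell (0.743%), against 1.77% and 1.19% of all. Over the lists the falls were thus near the background and the rises below it. Of the 38 calls in males, 24 passed on leaving out each array in turn, and the 14 that did not include Luc7l3 1399018_at, Srpk2 1375459_at, Clk3, Rbm10 and Rbfox1. Proteins of the U1, U2, U4, U5 and U6 particles outside the rule had 2 rises (4.08%) and 3 falls (6.12%) among 49 tested in males, both below the shares of all probe sets. Txnl4a, a small U5 protein, gave 266, 326, 289, 329 and 279 in dehydrated males, against 216, 246, 221, 212 and 247 in control males (log2 fold change 0.37 ± 0.08, limma adjusted p = 0.00437). Lsm4, part of the ring on U6 RNA, rose by 0.29 ± 0.06. Luc7l3, a U1-associated protein, fell with 2 of its 3 probe sets (-0.48 ± 0.08 for 1382957_at and -0.19 ± 0.06 for 1399018_at), and the third, 1377694_at, had -0.29 ± 0.16 (limma adjusted p = 0.241). Snrnp70, the U1 70K protein, fell as well (-0.24 ± 0.06).

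The list of Prp19 complex, catalytic step and exon junction factors had 3 rises (5.36%) and 4 falls (7.14%) among 56 tested in males, again below the shares of all. Thoc7, of the complex that couples transcription with RNA export, gave for probe set 1398385_at 930, 996, 976, 966 and 952 in dehydrated males, against 663, 673, 621, 645 and 676 in control males. This was a log2 fold change of 0.55 ± 0.05 (limma adjusted p = 2.93e-06), and in females the value was 0.40 ± 0.16 (limma adjusted p = 0.194). Its other probe set, 1375712_at, had 0.12 ± 0.16 in males (limma adjusted p = 0.646). Bud31, a spliceosome protein, and the RNA helicase gene Ddx39a rose by 0.28 ± 0.06 and 0.34 ± 0.09 in males. Srrm2, a large SR-related protein of nuclear speckles, fell with 2 probe sets (-0.32 ± 0.06 and -0.38 ± 0.08), and Isy1, a protein of the catalytic spliceosome, had -0.44 ± 0.10.

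SR protein kinases and SR-related proteins had 0 rises and 14 falls (21.5%) among 65 tested in males, against 8.32% and 9.38% of all probe sets, with a list median of -0.143 on the log2 scale, where all probe sets had -0.042. After quantile normalization 14 fell and the median was -0.130, and after median centring 5 fell, 1 rose and the median was -0.066. Pnn, a speckle protein also found at cell junctions, gave 176, 165, 181, 190 and 189 for probe set 1374111_at in dehydrated males, against 226, 221, 226, 228 and 236 in control males (log2 fold change -0.33 ± 0.06, limma adjusted p = 0.00299). Rbm39, a U2AF-related splicing factor, fell with 2 of its 5 probe sets (-0.39 ± 0.08 and -0.30 ± 0.06). The kinase gene Srpk2, whose product phosphorylates SR proteins, fell with 3 probe sets (-0.25 to -0.41). Of these, 1375459_at passed in 3 of the 10 fits that leave out an array (limma adjusted p up to 0.0938). The calls of Son, Clk1, Srpk3 and Pnisr 1373534_at also held in only some of the fits that leave out an array. Pnn and Pnisr each fell with more than 1 probe set too, so the 14 falls came from fewer genes. Clk3, another kinase of SR proteins, was the list's call in females. It gave 96.6, 114, 113 and 99.4 in dehydrated females, against 165, 163, 145 and 139 in control females (log2 fold change -0.51 ± 0.12, limma adjusted p = 0.0402), and -0.33 ± 0.11 in males (limma adjusted p = 0.0470). On leaving out each array it passed in 1 of 8 female fits and 1 of 10 male fits.

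Among other splicing regulators and RNA-binding proteins, 4 of 76 rose (5.26%) and 6 fell (7.89%) in males, below the shares of all probe sets. Pcbp1, a poly(C)-binding protein gene, rose by 0.28 ± 0.05 with its single probe set. For its relative Pcbp2 1 of 3 probe sets rose, 1395792_at by 0.44 ± 0.08, and the others had -0.20 ± 0.11 and 0.01 ± 0.05. For Celf1, which binds GU-rich RNA, 1 of 5 probe sets rose, 1393257_at by 0.51 ± 0.10, and the others ran between -0.14 and 0.36. Rbm5 fell with 2 of its 3 probe sets (-0.38 ± 0.06 and -0.36 ± 0.10), and Nono, a paraspeckle protein, with 1 of 2 (-0.43 ± 0.11 for 1384257_at, where 1398904_at had -0.11 ± 0.05). Rbm10, a regulator of exon skipping, gave 75.4, 65.2, 76.7 and 59.5 in dehydrated females, against 104, 105, 120 and 108 in control females (log2 fold change -0.62 ± 0.13, limma adjusted p = 0.0263), and also fell in males (-0.38 ± 0.12, limma adjusted p = 0.0455). On leaving out each array it passed in 2 of 8 female fits and 4 of 10 male fits. The list of neuronal splicing regulators had 1 rise and 1 fall among 22 tested in males (4.55% each), Rbfox1 1390594_at at 0.49 ± 0.15 and Rbm24 at -0.34 ± 0.09. The Rbfox1 probe set had low signals, 28.6 ± 5.22 in dehydrated males and 18.4 ± 2.43 in control males (SD, n = 5 each). The other 3 tested probe sets of Rbfox1 lay below 0 in males, at -0.09, -0.30 and -0.24, and did not pass. No probe set of the 5 lists passed the test of the difference between the sets.

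**Figure D5:**
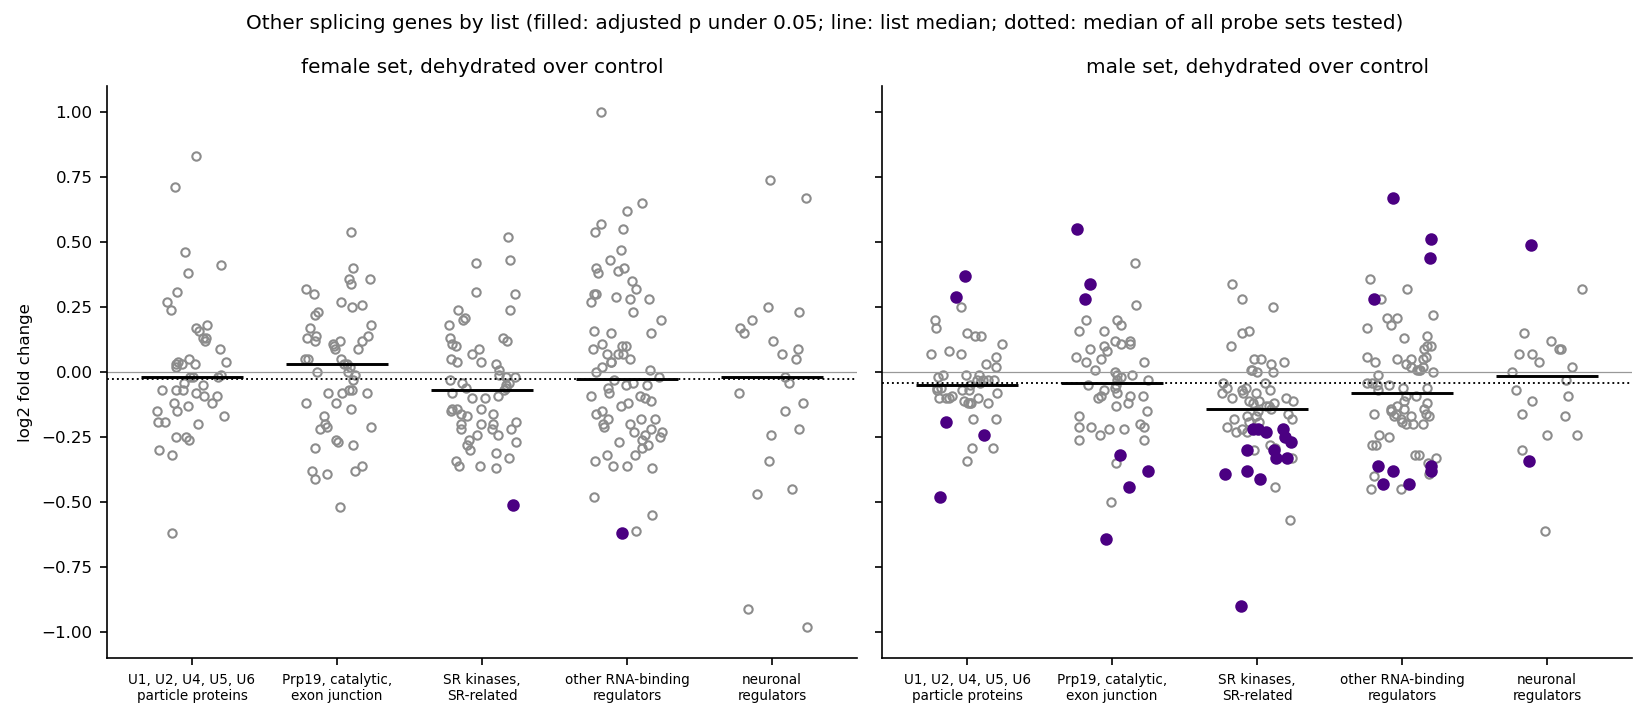
Log2 fold change (dehydrated over control) of the probe sets of 5 other lists of splicing genes in females (left) and males (right), with filled points for an adjusted p under 0.05, horizontal lines for list medians and a dotted line for the median of all probe sets tested. The SR kinase and SR-related list has 14 filled points in males, all below 0, and 1 in females.

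Markers of other cell types also differed between dehydrated and control rats. Of 10 mural cell and meninges markers, 8 fell and 1 rose in males, and their mean log2 value was 9.21 to 10.23 in dehydrated males, against 9.88 to 10.82 in control males. In females 3 of the 10 fell, with 9.21 to 9.51 in dehydrated rats, against 9.52 to 10.06 in controls. Oligodendrocyte markers fell for 5 of 9 in females (10.12 to 10.99 in dehydrated rats, against 11.06 to 11.60 in controls) and 0 of 9 in males. Astrocyte markers fell for 4 of 10 in males and 1 of 10 in females, microglia markers for 3 of 8 and 0 of 8, blood markers for 2 of 3 and 1 of 3, and choroid plexus markers for 2 of 3 and 0 of 3. Endothelial markers (10 tested) and cortical neuron markers (1 tested in males and 3 in females) had 0 calls in either set, and magnocellular markers had 2 rises in each set and 1 fall in males. No marker was at 0 on every used array.

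The 3′ to 5′ ratio of beta-actin had a lowest value of 6.83 and a median of 7.85 on the dehydrated male arrays, against a median of 6.52 and a highest value of 7.12 on the control male arrays, and that of GAPDH overlapped at 2.72 to 3.89, against 2.49 to 3.50. In females both ratios overlapped, with means of 3.33 in dehydrated rats and 5.54 in controls for beta-actin and of 1.27 and 1.81 for GAPDH, where control replicate 2 is the high array. The median deposited signal of an array was 36.1 to 38.3 in dehydrated males, against 38.9 to 40.4 in control males, so that centring on the median raises every dehydrated value relative to scaling on the trimmed mean. With the trimmed mean, 1808 of all probe sets rose and 2038 fell in males; with median centring, 2710 rose and 1091 fell. The corresponding female counts were 384 and 259, and 348 and 114. The part of cell makeup and RNA quality in the falls of the hnRNP genes was not tested.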

How the data were processed

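Per the submitters' processing notes, the authors made the deposited signal intensity values with GCOS 1.2 for the male arrays and MAS5 for the female arrays; the intensity is linear, with a trimmed mean near 100 on every array, and its background settings are not given in the sources used here. Levels printed are these deposited values. For tests the signals were multiplied to bring the trimmed mean of an array to 500 (2% off each end) and taken as log2(value + 32), without the 57 control probe sets. Probe sets above the 30th percentile of mean log2 value were kept, 21729 a fit. Groups were compared with limma 3.58.1 in R 4.3.3 (lmFit, eBayes with trend), with Benjamini-Hochberg adjustment over all of them and a threshold of 0.05: 4 against 4 female arrays, 5 against 5 male arrays, and the difference of both effects on all 18 arrays. The fits were tested on simulated data, where 46.2% of falls of 0.5 on the log2 scale were recovered in males and 10.0% in females. Few probe sets were changed there, drawn at random from the better-measured ones of the array. The median SD of all probe sets tested was 0.236 in females and 0.185 in males, against 0.169 and 0.106 for members. These shares therefore do not give the recovery for members. The number of arrays limits the precision, and no pair of arrays held identical values. Python 3.11.15 with pandas 2.3.3 made the tables and matplotlib 3.10.9 the figures.

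The member families, the 5 further gene lists and the 9 marker lists were chosen with earlier results of these data known, although the rule on symbols uses no measured value. Genes named by rule were up to 12 rises and 12 falls per set past the threshold, those past it in both sets or for the difference, in a family with none the probe set with the smallest male p, up to 3 rises and 3 falls per list and set, and Avp with Oxt. Other genes named were chosen after their values were seen. Gene symbols are those of the platform annotation, and updating them by Entrez ID left the 94 members as they were. Promoters came from RefSeq (GRCr8) by symbol. A marker list was summarised by the mean log2 value of its best-measured probe set per gene. Alternatives covered the left-out array, normalization, offset, filter, trend, array weights, a common fit, each array in turn and 1 probe set a gene.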

Additional observations from a re-analysis of the deposited data

Results flagged for a closer look

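In 220 groups of 4 or 5 arrays, over the probe sets named by rule and the other probe sets of their genes, the highest or lowest array was tested for a gap to its nearest neighbour above Dixon's 95% critical value. That happened 6 times, where chance flags about 1 in 20 groups, or 11.0 of 220. For Hnrnpa3 1374405_at, dehydrated male replicate 3 was low at 400, with the other 4 between 408 and 411. For Hnrnpa2b1 1373540_at, control male replicate 4 was high at 267, with the others between 226 and 235. For Prpf4b 1385533_at, dehydrated female replicate 4 was high at 101, with the others between 69.5 and 74.2. For Hnrnpu 1370171_at the same replicate was high at 626, with the others between 406 and 424. For Srsf5, dehydrated male replicate 1 was high at 1034, with the others between 935 and 960. For Ddx39a, dehydrated female replicate 2 was low at 142, with the others between 178 and 182.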

How the results depend on the processing

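The 10 falls in males numbered 4 with 3 rises after median centring (Sf3b4, Snrpd2 and Snrpd1 rose, and the member median was 0.028), 5 in a common fit of all 4 groups, 4 with 1 probe set a gene, 12 after quantile normalization, and 8 to 11 on leaving out each array. The 1 fall in females became 0 with all 9 female arrays, after median centring and without the mean-variance trend, and 0 to 2 on leaving out each array; array weights gave 2 rises and 6 falls, and the common fit 3 rises and 6 falls. Array weights gave 1 member for the difference between sets, Prpf40b. For the 5 further lists in females (0 rises and 2 falls), quantile normalization and median centring gave 1 rise and 1 fall each, no filter 1 rise, no trend 1 fall, all 9 arrays 0 falls, array weights 5 rises and 6 falls, the common fit 12 of each, and leaving out each array 0 to 2 rises and 0 to 3 falls. For the lists in males (10 rises and 28 falls), median centring gave 22 rises and 12 falls, the common fit 6 and 12, no trend 18 falls, and leaving out each array 17 falls (control replicate 4) to 31. The cause was not tested. Offsets of 1 and 100, a filter at the 50th percentile, updated symbols and leaving out probe sets of several transcripts kept every count of members within 1.5 times. No paired analysis was possible because the dehydrated and control samples carry no shared replicate numbers in the labels.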

Other observations

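The array left out, titled as a dehydrated female pool, gave deposited signals of 50.6 for Avp and 26.0 for Oxt, and its median correlation with the other 8 female arrays was 0.815, where pairs of those arrays had at least 0.925. Of the 94 members, 24 lay above and 32 below the range of the other 8 female arrays (59.6%). Among members past the filter the share was 61.2%, and among all probe sets past it 68.8%. Srsf11 1382056_at read 375 on that array, against 131 to 191 on the others, and Hnrnpa2b1 1373540_at read 517, against 191 to 269. Prpf4b 1385533_at read 211, against 69.5 to 128. On the low side, Sf3b5 read 137, against 349 to 620, and Snrpd2 207, against 462 to 1009. Hnrnpd read 119, against 269 to 373. The mean log2 value of the oligodendrocyte markers was 13.08 on that array, against 10.12 to 11.60 on the other female arrays, and that of the magnocellular markers was 8.70, against 11.93 to 12.61.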
